A study of Nicotiana tabacum with 20 samples.

Results

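Leaf RNA of a tobacco line carrying a hairpin against the retrotransposon Tnt1 (HP8_T1, line 8 in the T1 generation) was compared with leaf RNA of plants carrying the empty vector (C). The libraries were taken by their labels: 4 of HP8_T1 and 4 of C, 8 of the 20 libraries in the series, joined by feature identifier over all 24069 features. HP8_T1 and C plants were both *Nicotiana tabacum* regenerants from transformation, and leaves came from 45-day-old plants grown in vitro with antibiotic, 14 h of light and 24 °C. Both vectors held the 35S promoter, an intron, the OCS terminator and hygromycin resistance. The HP8_T1 vector also held a sense and an antisense copy of a fragment of the Tnt1 reverse transcriptase, and the reporter gene GUS. The labels list no GUS for C and no line or generation for it. An effect of the hairpin, of GUS, of the insertion or of the generation therefore cannot be told apart. The 12 other libraries, 4 each of untransformed wild type (WT), hairpin line 1 in T1 (HP1_T1) and its self-pollinated progeny (HP1_T2), share the fit and are given beside the results. HP8_T1 stands for 1 line, and whether its 4 libraries are 4 plants is not in the labels. The p-values then rest on a spread between libraries that may be technical.

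Tnt1 is a copia-type retrotransposon of tobacco, which moves by copying its RNA into DNA with a reverse transcriptase that it encodes. It is mostly silent in leaves of healthy plants and is known to be transcribed after wounding, pathogen attack and tissue culture. A hairpin RNA is double-stranded, and plant Dicer-like enzymes cut it into small RNAs that guide the silencing of matching sequences. GUS encodes a bacterial glucuronidase used as a stain for transgene activity. The features are UniGene sequences (clusters of expressed tobacco sequences), and the files do not pair their identifiers with gene names. Tnt1, GUS, the hairpin and leaf marker genes could therefore not be picked out, so the leaf label and the effect of the hairpin on its target were not checked here. For the same reason at most 2 features that rose and 2 that fell are named, and no sequence is printed.

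HP8_T1 libraries gave a smaller share of their reads to the most abundant feature than C libraries did. This feature of 625 bases took 90.5%, 90%, 88.1% and 89% of gene reads in C replicates 1 to 4. In HP8_T1 replicates 1 to 4 it took 78.1%, 77.1%, 73.8% and 75.6%. All HP8_T1 libraries lay below all C libraries, with a difference of −13.2 percentage points between the means (two-sided exact permutation test, p = 0.0286, the smallest that 4 against 4 allow, and 0.0429 after Benjamini-Hochberg adjustment over 3 measures). A low share was not particular to line 8. The libraries of line 1 overlapped those of HP8_T1, with 75.5% to 79.6% in the T1 generation and 76.0% to 80.7% in the T2 generation. WT libraries took 82.3% to 86.1%, above all HP8_T1 libraries and below all C libraries, so C was the highest group. The share fell in the order of replicates 1, 2, 4 and 3 in each of the 5 groups, which the labels do not account for. Within the 4 replicate numbers the difference ran from −14.2 to −12.4 points, and an exact permutation test paired by number gave p = 0.125, the smallest for 4 pairs. The sources used here do not say what this feature encodes, and a fall of its share cannot be told apart from a rise of the other RNA. Whether the preparation of RNA and libraries has a part in the difference was not tested.

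The other features accordingly had fewer reads behind them in C. Outside the most abundant feature, 199341 to 293708 reads remained in the C libraries and 458024 to 647426 in the HP8_T1 libraries, although total gene reads were alike (2100788 to 2734037 and 2094798 to 2688507). At least 10 reads in each library were reached by 1574 features in C and by 3995 in HP8_T1. After thinning to 199341 reads outside the most abundant feature, these counts were 1221 and 1372. Low features were therefore measured less precisely in C. Which features were tested was set over all 20 libraries, by reads relative to library totals. Low features could thus pass more easily through HP8_T1 than through C, which favours rises among those tested. Of the tested features, 78 had no read in C and 12 had none in HP8_T1.

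The second most abundant feature, of 868 bases, was not separated between the groups. It took 30.8%, 30.4%, 33% and 32.2% of the remaining reads in C replicates 1 to 4, and 31.3%, 30.4%, 32.6% and 31.8% in HP8_T1. The libraries of the groups overlapped, and the difference of −0.0995 percentage points did not pass the test (exact permutation p = 0.943, adjusted 0.943). In the fit across all features, its log2 change was −0.09 (SE 0.04, edgeR adjusted p = 0.0842), while that of the most abundant feature was −1.49 (SE 0.05, adjusted p = 4.53e-44).

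At equal depth the remaining reads of HP8_T1 touched more features. With each library reduced at random to 199341 such reads, 11950, 11953, 12056 and 12118 features had a read in C replicates 1 to 4. In HP8_T1 replicates 1 to 4 there were 12471, 12488, 12547 and 12587. No library of C reached the lowest of HP8_T1, and the means differed by 504 features (exact permutation p = 0.0286, adjusted 0.0429, and 0.125 when paired by replicate number). HP1_T1 lay higher, at 13404 to 13508. HP1_T2, at 12222 to 12324, lay below HP8_T1 and above C, and WT was lowest, at 10200 to 10323.

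**Figure D1:**
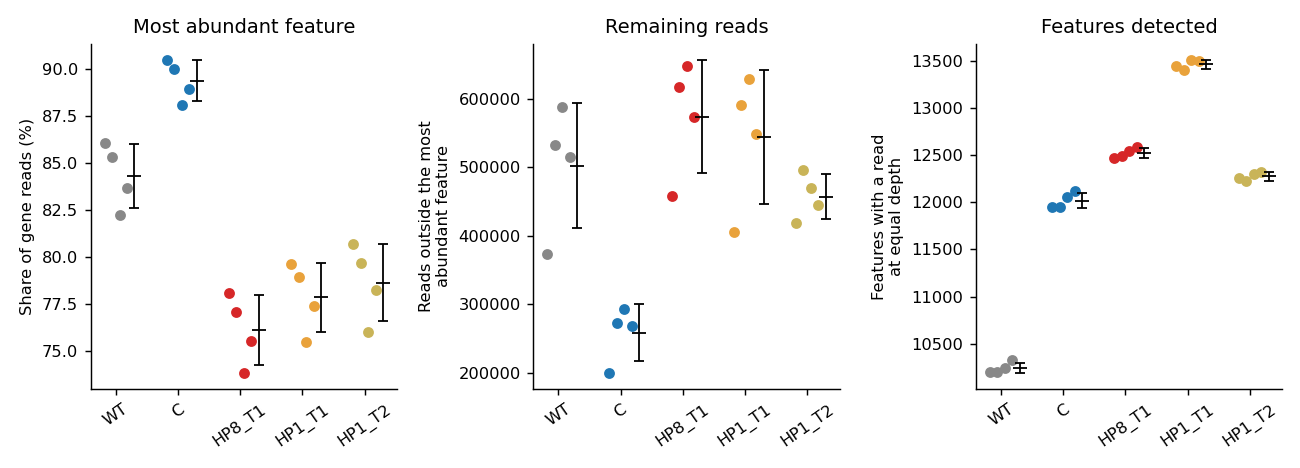
Share of gene reads on the most abundant feature (left, %), number of reads outside it (middle) and number of features with a read after thinning to 199341 such reads (right), for each library of the 5 groups. Points are libraries and the bars to their right are mean ± SD (n = 4); HP8_T1 lies below C on the left, from 73.8% to 78.1% against 88.1% to 90.5%, and above C in the other panels.

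HP8_T1 exceeded C in 1557 features and fell below it in 1385. The 2942 calls were 41.3% of the 7126 features with enough reads to be tested (21.8% higher and 19.4% lower), by the quasi-likelihood test of edgeR with a threshold of 0.05 on the p adjusted by Benjamini-Hochberg. Values were scaled by TMM, which sets each library's scale from the bulk of features rather than from its total. The median log2 change was 1.52 among the higher features (quartiles 1.04 and 2.26) and −1.20 among the lower ones (quartiles −1.73 and −0.89), with a median SE of 0.41 and 0.31. Among the higher features, 74 had no read in C, and with these set at 3 reads over the group the median was 1.51.

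More rises than falls were of a large size, but the largest fitted rises rest mostly on features without reads in C. A fitted change of at least 2-fold was found for 1202 of the higher and 911 of the lower features (16.9% and 12.8% of those tested). At least 4-fold changes numbered 495 and 245, at least 8-fold changes 210 and 77, and at least 32-fold changes 79 and 12. Of these 79 and 12, 66 had no read in C and 4 had none in HP8_T1, so their fitted size has no measured denominator. With each such feature set at 3 reads over the group without reads, at least 8-fold changes numbered 160 and 74 and at least 32-fold changes 15 and 8. The 4 libraries of HP8_T1 did not overlap those of C in normalised read count for 1253 of the 1557 higher and 1024 of the 1385 lower features. Over all tested features, 19.6% lay wholly above and 15.5% wholly below C. C holds fewer reads outside the most abundant feature, so a low level in C is measured less precisely than one in HP8_T1. Low features could also pass the filter more easily through HP8_T1, which would favour rises. At equal depth, 635 features were higher and 660 lower of 2733 tested. The part of depth and filter in the larger rises was not tested.

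**Figure D2:**
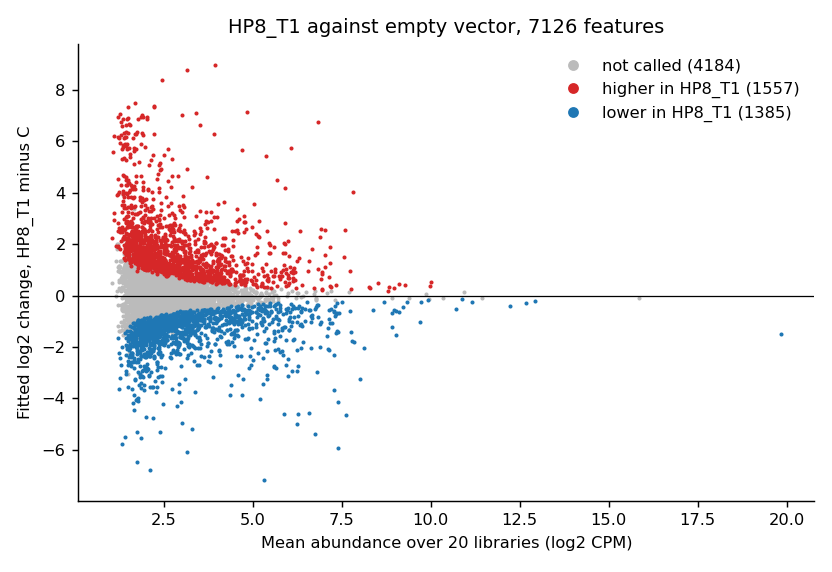
Fitted log2 change of HP8_T1 against C (vertical axis) by mean abundance over the 20 libraries (horizontal axis, log2 CPM) for the 7126 features tested. Red points are the 1557 features called higher, blue points the 1385 called lower and grey points those not called; the largest rises lie at low to middle abundance, and 66 of the 79 above a log2 change of 5 had no read in C.

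Libraries of a group varied little among themselves. The common biological coefficient of variation was 9.33% among the HP8_T1 libraries and 9.40% among the C libraries when each group was fitted alone. Over 12 pairs of libraries within a group, chi-square per degree of freedom across features was 1.25 to 1.52. With p at most 5.87e-31, each pair differed by more than counting noise, and none was treated as 1 library deposited again.

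The balance of rises and falls differed between classes of abundance. Of the 100 most abundant features, 29 were higher and 59 lower in HP8_T1, with a median log2 change of −0.29 over the class. Of the 900 features next in rank, 247 were higher and 347 lower, and of the 2000 after those, 414 and 436. Beyond rank 3000 there were 867 higher and 543 lower of 4126, with a class median of 0.18. The percentage of features called higher was 29%, 27.4%, 20.7% and 21.0% from the most abundant class down, while the percentage called lower went from 59% to 38.6%, 21.8% and 13.2%. The percentage not called rose over the same classes from 12% to 34%, 57.5% and 65.8%, and the median SE from 0.08 to 0.46. A change was thus harder to detect in the lower classes. Low features could also pass the filter more easily through HP8_T1, and the part of this in the counts was not tested. These percentages therefore do not show whether the balance changed through the rises or the falls.

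The reads behind these classes differed between the groups. The median feature of the most abundant class had 247 reads per library in C and 593 in HP8_T1, and that beyond rank 3000 had 4.25 and 11.3. At equal depth, 28 of 99 features of the most abundant class were higher and 55 lower, and 222 and 314 of 900 in the next. In the third class the split turned to 325 higher and 279 lower of 1611 features. Only 123 features beyond rank 3000 could still be tested there, of which 60 were higher and 12 lower. With library totals as the scale, rises prevailed in every class, with 73 higher and 17 lower in the most abundant one. The split of the third class depended on the scale at full depth too. It was 478 higher and 374 lower with totals outside the most abundant feature, and 415 and 433 with the upper quartile.

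**Figure D3:**
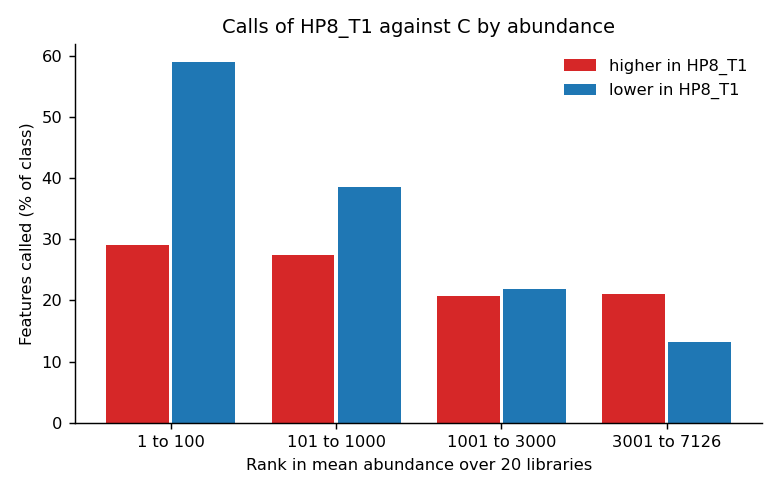
Percentage of features called higher (red) and lower (blue) in HP8_T1 than in C within 4 classes of abundance rank over the 20 libraries. In the most abundant class 29% were higher and 59% lower, against 21.0% and 13.2% beyond rank 3000.

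The called features were close in length to the rest. The median length was 890 bases among higher, 892 among lower and 888 among all tested features. Over 4 classes of length the median log2 change ran from −0.02 to 0.10, and rises made up 50.2% to 54.2% of the calls.

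The 2 features with the largest fitted rise had no read in any C library. Nta#S36362116, of 846 bases, had 68, 92, 83 and 81 reads in HP8_T1 replicates 1 to 4. It had 0 reads in each C library and 3 reads in 1 of the 4 WT libraries. Its normalised read count was 23.7 ± 1.39 CPM (reads scaled to a common library size with TMM) in HP8_T1 (SD, n = 4), and the HP8_T1 and C libraries did not overlap. With C set at 3 reads over its 4 libraries, it was at least 45.7-fold higher in HP8_T1 (edgeR adjusted p = 6.24e-23).

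Line 1 carried this feature too. Nta#S36362116 stood at 21.5 ± 1.60 CPM in HP1_T1 and 13.4 ± 1.97 in HP1_T2. HP8_T1 and HP1_T1 differed in it by a log2 value of 0.14 (SE 0.14, edgeR adjusted p = 0.461, not past the threshold), and HP8_T1 was above HP1_T2 by 0.83 (SE 0.17, adjusted p = 2.96e-05).

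Nta#S52711316, of 627 bases, had no read in C or WT. In HP8_T1 replicates 1 to 4 it had 52, 71, 65 and 90 reads, or 20.3 ± 4.05 CPM, with replicate 4 the highest at 26.3 CPM. It was at least 39.2-fold higher in HP8_T1 than in C, again with C at 3 reads (edgeR adjusted p = 8.64e-20). It was present at lower levels in line 1, at 5.05 ± 0.0899 CPM in HP1_T1 and 7.99 ± 2.60 in HP1_T2. HP8_T1 exceeded HP1_T1 by a log2 value of 2.0 (SE 0.20, edgeR adjusted p = 3.64e-14) and its libraries lay above all those of line 1. All reads of both risen features were unique in every library.

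The 2 falls named, the largest fitted ones among features with 20 reads or more per library on average in C, were already lower in C than in WT and lower still in HP8_T1. Nta#S39759647, of 1099 bases, had 23, 22, 26 and 29 reads in C replicates 1 to 4. In HP8_T1 it had 1 read in replicate 1 and none in the other 3. That read was not among the unique ones. The level in C was 17.5 ± 2.79 CPM against 225 ± 13.6 in WT, and the 1 read of HP8_T1 stands for a pooled 0.0730 CPM. C was 236-fold above HP8_T1 with an exact 95% counting interval of 41.4 to 9420 (edgeR adjusted p = 1.21e-24). The level was 1.12 ± 0.447 CPM in HP1_T1 and 2.65 ± 1.78 in HP1_T2.

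Nta#S33578574, of 1080 bases, had 473 reads over the C libraries and 18 over the HP8_T1 libraries. Its level was 88.5, 83.1, 78.9 and 77.3 CPM in C replicates 1 to 4 and 0.364, 2.15, 0.525 and 2.04 CPM in HP8_T1. The groups did not overlap, at 82.0 ± 5.01 CPM in C and 1.27 ± 0.956 in HP8_T1 (SD, n = 4). The fitted log2 change was −5.91 (SE 0.19, edgeR adjusted p = 4.70e-47). WT stood far above both at 811 ± 44.5 CPM, and line 1 between C and HP8_T1 at 6.26 ± 1.43 in HP1_T1 and 11.9 ± 2.22 in HP1_T2. HP8_T1 was below HP1_T1 by a log2 value of −2.22 (SE 0.30, edgeR adjusted p = 6.83e-10) in this feature and by −3.29 (SE 0.97, adjusted p = 0.00061) in Nta#S39759647. Reads of both fallen features were partly shared with other features: 84.1% of those of Nta#S39759647 and 77.9% of those of Nta#S33578574 were unique over the 20 libraries, so near-identical copies may have exchanged reads. Passing the threshold, not overlapping and an average of 20 reads or more per library where the feature is higher were conditions for naming these 4 features.

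**Figure D4:**
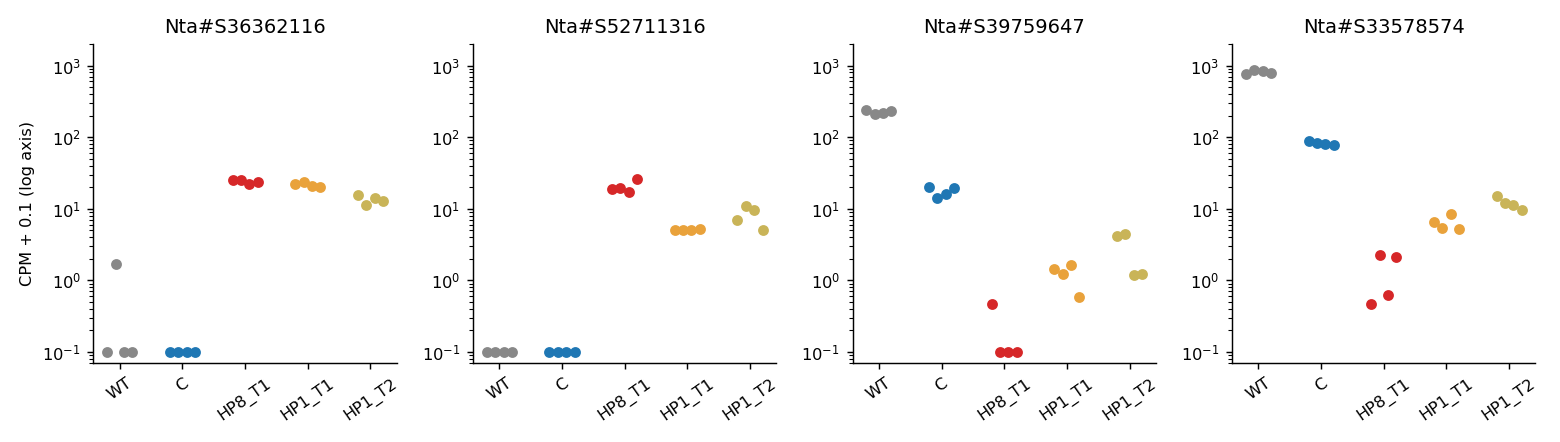
Normalised read count of the 4 named features in each of the 20 libraries, as CPM plus 0.1 on a log axis, so that points at 0.1 are libraries without reads. The 2 risen features are without reads in C and at means of 23.7 and 20.3 CPM in HP8_T1, and the 2 fallen ones step down from WT to C and again to HP8_T1.

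The features next in fitted size were described in the same way. The same conditions were met by 767 higher and 444 lower features. The 20 that followed the named ones among the higher had fitted log2 changes of 5.28 to 8.41, 0 to 23 reads over the C libraries and 80 to 5714 over the HP8_T1 libraries. Of these, 9 had no read in C, and with those at 3 reads over C the range was 3.50 to 7.14. Summed over a group's 4 libraries, the median feature had 126.5 reads in HP8_T1, against 1 in C and 5.5 in WT. Line 1 held 87.5 in its T1 and 38.5 in its T2 generation.

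The 20 that followed among the lower features fell by 3.18 to 5.40 on the log2 scale, from 80 to 888 reads in C to 6 to 217 in HP8_T1. The median feature had 30 reads in HP8_T1, against 167.5 in C and 1250 in WT. Line 1 held 89 in its T1 and 75 in its T2 generation. In C, 14 of these 20 were lower than WT and 4 higher, and among the 20 rises 7 were lower and 3 higher. Over all tested features, 21.0% were lower and 19.6% higher in C than in WT. These comparisons with WT share the C libraries with the choice of the features, so they are given as values only. Against HP1_T1, HP8_T1 was higher in 15 of the 20 rises and lower in 2, and lower in 15 of the 20 falls and higher in 0, while 20.7% of all tested features were higher and 20.3% lower. The features were chosen for extreme values in the same HP8_T1 libraries, which favours these directions, so nothing is read from the excess.

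The most read of these features on each side were singled out after their values were seen. A feature of 1005 bases went from 3, 5, 10 and 4 reads in C replicates 1 to 4 to 1099, 1459, 1636 and 1520 in HP8_T1. Its level was 416 ± 24.2 CPM in HP8_T1, against 3.68 ± 1.71 in C and 1.55 ± 0.365 in WT (SD, n = 4 each). Line 1 stood at 53.8 ± 2.22 CPM in T1 and 46.9 ± 7.84 in T2. The log2 change against C was 6.76 (SE 0.15, edgeR adjusted p = 1.60e-60), and HP8_T1 stood above HP1_T1 by 2.95 (SE 0.08, adjusted p = 3.95e-52). All HP8_T1 libraries lay above those of every other group.

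The counterpart among the falls, of 953 bases, had 158, 210, 291 and 229 reads in C and 48, 62, 56 and 51 in HP8_T1. It stood at 1128 ± 17.9 CPM in WT, 152 ± 20.7 in C and 15.9 ± 1.36 in HP8_T1, a log2 change against C of −3.26 (SE 0.11, edgeR adjusted p = 1.83e-47).

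Loss and gain of all reads between the groups was uneven. There were 25 features with 0 reads in the 4 C libraries and at least 10 in each HP8_T1 library, and 0 features with the opposite pattern. The HP8_T1 libraries held 44 to 324 reads of each of the 25 (median 78). The 24 of these that were tested were at least 6.21-fold to at least 45.7-fold higher than C set at 3 reads. Of the 25, 15 had no read in WT either, whereas all 25 had a read in HP1_T1 (5 to 345, median 28) and 21 in HP1_T2. Over all features, a mean of 12805 had a read per library in WT, 16083 in HP1_T1 and 14506 in HP1_T2. That difference favours the same pattern, so nothing about the 25 is read from it. HP8_T1 was called above HP1_T1 in 16 of them and below it in 1, against 20.7% and 20.3% of all tested features, but the 25 were chosen for reads in HP8_T1, which favours this direction. The uneven depth bears on this count: with all libraries thinned alike and at least 3 reads asked for in each library, 44 features were without reads in C and 15 without reads in HP8_T1.

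HP8_T1 was also above WT in 61.8% of the features above C, and below WT in 60.8% of those below C. HP8_T1 was higher than both C and WT in 962 features (13.5% of those tested) and lower than both in 842 (11.8%). The 2 comparisons share the HP8_T1 libraries, so these counts describe where HP8_T1 lay. Against WT alone, 29.4% of tested features were higher and 25.2% lower in HP8_T1. Of the 1557 features above C, 499 were not called against WT and 96 were below WT. Of the 1385 below C, 438 were not called against WT and 105 were above it. For these features the call against C goes with a level in HP8_T1 that was not called on the same side of WT.

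The median levels of the called features showed the same arrangement. Features higher than C had a median of 6.99 CPM in HP8_T1 and 2.31 in C, with WT at 3.55 and line 1 at 5.08 (T1) and 4.72 (T2). Those lower than C had 4.09 in HP8_T1 and 9.73 in C, with WT at 8.91 and line 1 at 5.71 (T1) and 5.91 (T2). C and HP8_T1 hold the extremes by the choice of the features. HP8_T1 lay outside all 4 other groups, with each comparison called, in 332 features above (4.66%) and 255 below (3.58%), at a median log2 distance from HP1_T1 of 1.18 and −1.23.

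Line 1 and WT share no library with HP8_T1 and C, although the fit, its filter and its scaling rest on all 20 libraries. At least 10 reads in each library were reached by 4483 features in HP1_T1 and 2148 in WT. As between HP8_T1 and C, the hairpin group thus had more features with such reads. The part of this imbalance in the shared calls was not tested. Of the 1557 features higher in HP8_T1 than in C, 676 (43.4%) were higher in HP1_T1 than in WT and 247 (15.9%) lower. Among all tested features, 29.9% were higher in HP1_T1 than in WT and 24.4% lower. Of the 1385 features lower in HP8_T1 than in C, 606 (43.8%) were lower in HP1_T1 than in WT and 266 (19.2%) higher. The shared features made up 31.7% of all those higher in HP1_T1 than in WT and 34.9% of those lower.

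The median log2 change of HP1_T1 against WT was 0.57 among features higher in HP8_T1 than in C, −0.40 among those lower and 0.19 among those not called. Against WT, HP1_T2 was higher in 38.8% of the features above C and lower in 45.6% of those below, with 27.8% and 24.5% over all tested features. The comparison of HP1_T1 with WT also holds what transformation does.

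These shares depended on scale and on the fit. With reads outside the most abundant feature as the scale, 77.6% of the features higher in HP8_T1 than in C were higher in HP1_T1 than in WT, but so were 68.5% of all features. For the lower features these were 23.8% and 9.11%. HP8_T1 with C and HP1_T1 with WT were also fitted separately, with 3872 features tested in both fits. Of 840 higher and 1000 lower features, 49.4% and 50.2% were called the same way in HP1_T1 against WT. Among all 3872 features, 30.4% were called higher and 30.6% lower in HP1_T1 than in WT. Under each of the 6 scalings tried, the share in the list exceeded the share in all features in both directions.

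**Figure D5:**
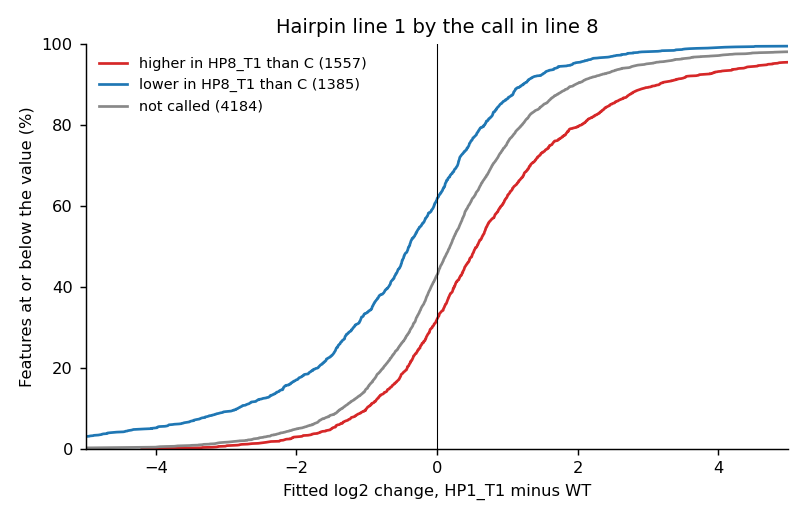
Cumulative percentage of features by their fitted log2 change of HP1_T1 against WT, for features higher in HP8_T1 than in C (red), lower (blue) and not called (grey). The red curve lies to the right and the blue curve to the left of the grey one, with medians of 0.57, −0.40 and 0.19; values beyond 5 in size are not shown.

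The split of the calls held under most scalings but not under library totals. Over all features tested, the median log2 change was 0.05 with TMM and 0.06 to 0.14 with DESeq2 size factors, the upper quartile, or totals outside the most abundant or the 100 most abundant features. Rises made up 52.9% of calls with TMM and 53.3% to 59% with those. Library totals, which are mostly reads of the most abundant feature, moved the median to 1.29, and 5162 features were then higher and 235 lower (95.6% rises). Under the 5 scalings other than library totals, 1557 features were higher and 1216 lower each time. Under all 6 it was 1557 and 235. Each alternative moved the median upwards, which favours rises, so these kept counts do not rank rises against falls.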

How the data were processed

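Per the labels' protocols, leaf total RNA was prepared by a lithium chloride method and sequenced from SOLiD Total RNA-seq libraries. The sources used here give no aligner and no build. The authors deposited raw read counts per feature, as total and unique gene reads, per the file headers. Columns were joined across 2 tables by identifier, and their 4 WT columns were identical. Of 24069 identifiers, 0 matched the 79372 genes of the reference table, so planned gene lists and markers were not applied. Total gene reads were analysed; unique reads were 99.0% to 99.7% of them in HP8_T1 and C.

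One edgeR 4.0.16 fit in R 4.3.3 held all 20 libraries: TMM, filterByExpr with a minimum count of 10, no covariate beside the group, quasi-likelihood tests, adjusted over 7126 features. The 16943 others were not tested. SE is the fitted change over the root of F. The fit was tested on simulated counts with few changed features and a profile shared by all groups. That test does not cover the scaling or the filter for groups as unlike as these. Single values per library were compared by exact permutation in Python 3.11.15 with scipy 1.17.1; thinning used 20 draws. DESeq2 1.42.0 was an alternative. Intervals and floors of 3 reads cover counting error only.

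Named features were the largest fitted changes that passed the threshold, did not overlap between the groups and averaged 20 reads or more per library where higher. Comparisons, lists and rules were chosen with earlier results of these data known. Equal depth, unique reads for features without reads, scalings of the sets outside both controls, and fold sizes with features without reads set at 3 reads were added after seeing the data.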

Additional observations from a re-analysis of the deposited data

Results flagged for a closer look

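In 32 groups of 4 libraries, 3 had a library whose gap to the nearest other exceeded Dixon's critical share of the range; chance flags about 1 in 20. Nta#S36362116 had a share of 1 in WT, where 1 library held 3 reads and the others none. Nta#S39759647 had a share of 1 in HP8_T1, where 1 library held 1 read. Nta#S52711316 had a share of 0.891 in HP1_T1, where the library standing apart differed by little (5.19 CPM, the next highest 5.02).

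The change against C differed between the lines in 3 of the 4 named features, tested directly between HP8_T1 and HP1_T1 in edgeR. The log2 difference was 2.0 for Nta#S52711316 (adjusted p = 3.64e-14), −3.29 for Nta#S39759647 (adjusted p = 0.00061) and −2.22 for Nta#S33578574 (adjusted p = 6.83e-10). The levels of HP8_T1 lay further from C in each, which the choice of the features by their change in the same HP8_T1 libraries favours.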

How the results depend on the processing

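Of 226 values under alternatives, 178 kept their direction and their side of the threshold or, for counts, stayed within 1.5 times the main count. The balance of rises and falls turned at equal depth, over all features and in the third class. At full depth the third class also turned under each other scaling except the upper quartile. The 4 named features passed the threshold under each alternative run, DESeq2 and unique reads included, which their choice by size and threshold in the same libraries favours. Calls numbered 1426 to 1584 higher and 1238 to 1371 lower with a library left out. Without a filter 2951 were higher and 2215 lower of 20394 features, and at equal depth 635 and 660 of 2733; fewer or more features were tested there by construction. DESeq2 gave 1477 and 1181, and the 8 libraries alone 1118 and 1056 of 4451.

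With library totals, 5162 features were higher and 235 lower; higher counts by class were 73, 711, 1542 and 2836, lower counts 17, 72, 53 and 93. At equal depth, 279 were lower in the third class, and 60 higher and 12 lower in the last. Features called alike in HP1_T1 against WT numbered 4340 and 95 with library totals, and 1360 and 290 with totals outside the most abundant feature. In 2 separate fits, 415 were called higher in both (49.4% of 840, against 30.4% of the 3872 features tested in both). Those outside both controls numbered 4446 and 154, and 1506 and 488, under the same scalings. With features without reads set at 3 reads, 15 rather than 79 were at least 32-fold higher. Unique reads gave 1 feature without reads in HP8_T1, and equal depth 44 in C and 15 in HP8_T1. Except for scalings and tested numbers, the cause was not tested.

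The replicate numbers were not treated as pairs: deviations of same-numbered HP8_T1 and C libraries correlated across features at 0.00634 to 0.0287, and 2 of 4 matched their own number best. Counting noise at low reads lowers such correlations, so they cannot exclude a factor shared by number. The share of the most abundant feature was ordered alike by number in all 5 groups, and replicates 1 and 2 and replicates 3 and 4 were the closest pairs in both C and HP8_T1. What the numbers stand for is not in the labels. The replicate block gave 1571 higher and 1393 lower features, and 1088 and 1046 in the 8 libraries. Paired by number, the differences of −13.2 points and 504 features had an exact p of 0.125, the smallest for 4 pairs. With a library left out they ran from −13.9 to −12.5 points and from 481 to 537 features (exact p = 0.0571, the smallest for 4 against 3).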
